A study of Mus musculus with 24 samples.

Results

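The blood-brain barrier genes examined here are 10 genes of brain endothelium, found by their names in the deposited table of 54532 genes: Cldn5, Ocln, Tjp1, Cdh5, Pecam1, Mfsd2a, Slc2a1, Abcb1a, Slco1a4 and Abcg2. All 10 were found once, and all 10 were above 0 in every mouse and passed the filter on low values. Their expression was measured by RNA sequencing of a brain hemisphere from 24 male WT C57Bl6 mice, with 6 mice in each of 4 groups. The mice were 8 to 12 weeks old, and all of them carried an osmotic minipump for 14 days and received an injection into the tail vein. Vehicle mice had pumps filled with saline, and mice infused with angiotensin II, a peptide hormone that raises blood pressure, had pumps that delivered 0.7 mg/kg/day. In the vehicle + amnion epithelial cell group and the angiotensin II + amnion epithelial cell group, the injection held 1000000 human amnion epithelial cells (AECs), which came from donated term placentae. The other 12 mice were injected with saline. Only males were studied, and the RNA is that of a whole hemisphere, in which endothelial cells are a small part.

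Brain endothelial cells line the capillaries and form the blood-brain barrier. Tight junctions seal the clefts between these cells, a low rate of vesicle transport limits passage through them, and membrane transporters decide which nutrients enter the brain and which drugs are pumped back into the blood. Loss of junction proteins and leakage of the barrier have been described in hypertension, which is why transcripts of these genes are of interest in mice infused with angiotensin II. Among the 10 genes, Cldn5 encodes claudin-5, the main sealing protein of the endothelial tight junction, Ocln encodes occludin, a second membrane protein of the junction, and Tjp1 encodes ZO-1, the scaffold that ties the junction to the actin cytoskeleton. Cdh5 encodes VE-cadherin of the adherens junction, and Pecam1 encodes the endothelial adhesion molecule CD31. The carriers are Mfsd2a, a lysophospholipid transporter that also restrains vesicle transport, and Slc2a1, the glucose transporter GLUT1. Slco1a4 encodes an organic anion transporter, and Abcb1a and Abcg2 encode the efflux pumps P-glycoprotein and BCRP.

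The tight junction transcripts are shown first, because they differ in base composition and, as given below, in direction between sets of libraries. Cldn5 (ENSMUSG00000041378) lies at chr16:18776847-18778262 of GRCm38 on the plus strand and has a single exon, and its transcript of 1416 bases is 60.5% G and C. Ocln (ENSMUSG00000021638, chr13:100496507-100552718, minus strand) has 9 exons and a G and C content of 42.0%. Tjp1 (ENSMUSG00000030516, chr7:65296165-65527781, minus strand) has 28 exons and a G and C content of 46.8%. The first 90 bases of the longest coding exon of each gene are shown in the sense of the transcript, with G and C in capitals. They were taken from the GENCODE M21 transcripts at chr16:18776996-18777085 (plus strand, exon 1), chr13:100539844-100539933 (minus strand, exon 3) and chr7:65313335-65313424 (minus strand, exon 21).
Cldn5: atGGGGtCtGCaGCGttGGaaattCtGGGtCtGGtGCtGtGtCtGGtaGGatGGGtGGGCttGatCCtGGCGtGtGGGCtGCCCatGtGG
Ocln: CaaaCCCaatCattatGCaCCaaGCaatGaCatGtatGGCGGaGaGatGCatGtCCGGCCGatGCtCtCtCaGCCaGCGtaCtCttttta
Tjp1: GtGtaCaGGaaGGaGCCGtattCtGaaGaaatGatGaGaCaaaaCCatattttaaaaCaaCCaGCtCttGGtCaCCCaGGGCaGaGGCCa
These stretches are 60.0%, 48.9% and 45.6% G and C, respectively. The coding parts of the same exons, of 654, 673 and 870 bases, are 64.1%, 48.7% and 49.5% G and C.

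The remaining genes are Cdh5 (ENSMUSG00000031871, chr8:104101625-104144511, plus strand), Pecam1 (ENSMUSG00000020717, chr11:106654217-106750628, minus strand), Mfsd2a (ENSMUSG00000028655, chr4:122946850-122961188, minus strand) and Slc2a1 (ENSMUSG00000028645, chr4:119108711-119137983, plus strand). Abcb1a (ENSMUSG00000040584) lies at chr5:8660077-8748575 on the plus strand, Slco1a4 (ENSMUSG00000030237) at chr6:141805440-141856199 on the minus strand, and Abcg2 (ENSMUSG00000029802) at chr6:58584523-58695676 on the plus strand. Exons of Slc2a1 overlap the opposite-strand gene Gm12868, and exons of Abcb1a overlap the opposite-strand gene Gm42686. The use of strand in counting is not given in the sources used here, so reads of these overlaps cannot be assigned. Abcb1a also shares 17.0% of its 50-base stretches with other genes, mostly with its paralog Abcb1b (15.5%), and Slco1a4 shares 2.73%, mostly with Slco1a5, so their values are uncertain to that extent. The other 8 genes share none.

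Expression is given as FPKM, the fragments counted for a gene scaled to its length and to the size of the library. The recovered fragment totals were 16536449 to 25308700 per mouse, and each barrier gene had between 104 and 3029 fragments in a mouse. The libraries fell into 2 sets that the labels do not name. FPKM summed over all genes was 277115.9 to 298300.6 in 18 libraries and 338334.5 to 348596.7 in the remaining 6. These 6 were the fifth and sixth mice of the vehicle and of the angiotensin II + AEC groups, the fifth mouse infused with angiotensin II and the sixth of the vehicle + AEC group. The mitochondrial share of fragments was 4.79% to 5.75% in the 18 and 6.17% to 6.85% in the 6. Since several barrier genes differed more between these sets than between treatments, the treatment values of the barrier genes are given with and without the 6 libraries. Of 21 other genes of endothelial identity, 20 had a mean of at least 1 FPKM. In RNA from a whole hemisphere, fewer endothelial cells and less RNA per endothelial cell cannot be told apart. The share of each barrier transcript that came from other cells is not known either.

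By mean FPKM over the 24 mice, Cldn5 (47.9) and Slc2a1 (31.6) led the barrier genes, followed by Mfsd2a (11.1), Tjp1 (9.02), Slco1a4 (6.63), Abcb1a (4.59), Pecam1 (3.88), Cdh5 (3.64), Ocln (2.24) and Abcg2 (1.95). Thus the transcript of the sealing claudin stood far above that of occludin. Neighbours in this order were separated without overlap at 2 places, between Slc2a1 and Mfsd2a and between Cdh5 and Ocln. The order of Slco1a4 above Abcb1a held within each of the 24 mice although their ranges overlapped. Abcb1a lay above Pecam1 in 17 of the 18 libraries and in 1 of the 6, and Ocln lay above Abcg2 in 18 of the 18 and in 2 of the 6, so these places in the order differed between the sets of libraries. Pecam1 and Cdh5, both general endothelial genes, could not be ordered, with Pecam1 higher in 17 of 24 mice.

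Infusion of angiotensin II was compared with vehicle to ask whether barrier transcripts are altered in the brain of hypertensive mice. No barrier gene passed the test: 8 were higher and 2 lower with angiotensin II, by log2 fold changes of -0.15 to 0.17, and 0 of the 10 reached an adjusted p of 0.05 in limma (lowest adjusted p = 0.994). With limma's voom on the recovered fragments, 0 of the 10 reached it too. Across the 27286 genes in the fit, 0% reached it and 2.21% were under 0.05 before adjustment, as were 0 of the 10 barrier genes. The study itself, with DESeq, reported differentially expressed genes for this comparison and for AECs in mice infused with angiotensin II. The 0% therefore describes the limma fit of FPKM values only. The median absolute log2 fold change was 0.11 for the barrier genes and 0.11 for all genes tested. Fold changes are on the log2(FPKM + 0.1) scale, which understates those of low genes. Vehicle and angiotensin II values overlapped for all 10 genes, as they did for nearly all genes tested, of which 0.0623% had groups that did not overlap.

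Among the tight junction genes, Cldn5 had 38.9 to 77.4 FPKM with vehicle (median 44.2), 34.2 to 63.1 with angiotensin II (43.9), 31.1 to 72.1 with vehicle + AECs (40.5) and 37.2 to 77.2 with angiotensin II + AECs (45.6). The 6 values above 60 FPKM were those of the 6 libraries named above, so the highest mouse of every group was one of them. The difference between angiotensin II and vehicle was a log2 fold change of -0.15 (SE 0.217), and -0.02 (SE 0.0983) with the library set as a term. Ocln ran from 1.42 to 2.58 FPKM with vehicle (median 2.44), 1.60 to 2.64 with angiotensin II (2.32), 1.28 to 2.66 with vehicle + AECs (2.49) and 1.71 to 2.78 with angiotensin II + AECs (2.37). Here the same 6 mice were the lowest of their groups. Its log2 fold change with angiotensin II was 0.08 (SE 0.178), and it turned to -0.03 (SE 0.0739) with the library set as a term. Tjp1, the scaffold gene, had 5.27 to 10.8 FPKM with vehicle (median 9.75), 6.42 to 11.2 with angiotensin II (9.85), 4.95 to 11.9 with vehicle + AECs (9.34) and 6.04 to 10.5 with angiotensin II + AECs (9.90). Again the 6 libraries held the lowest values. Angiotensin II and vehicle differed by 0.17 (SE 0.215) on the log2 scale, by 0.04 (SE 0.0708) with the library set as a term, and by -0.0025 (SE 0.0811) within the 18 libraries, so the direction was not fixed.

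**Figure D1:**
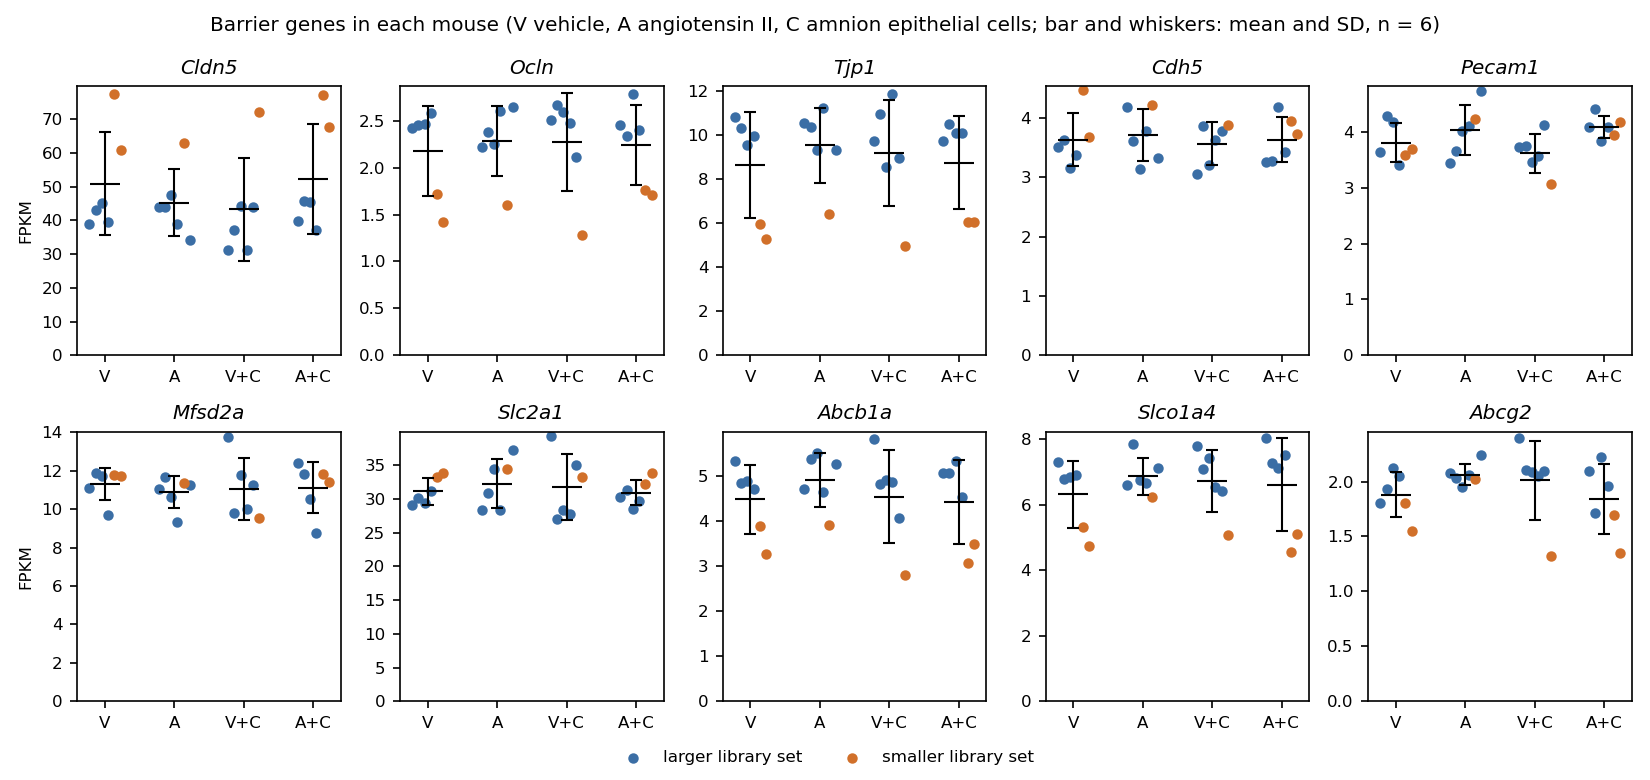
FPKM of each barrier gene in each of the 24 mice, by group (V vehicle, A angiotensin II, V+C vehicle + AECs, A+C angiotensin II + AECs), with the mean and SD of 6 mice; blue points are the 18 libraries of lower total FPKM (larger set) and orange points the other 6 (smaller set). The orange points are the highest in every group for Cldn5, at 60.9 to 77.4 FPKM, and the lowest for Ocln, Tjp1, Abcb1a and Slco1a4.

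The endothelial adhesion genes varied less. Cdh5 had 3.16 to 4.47 FPKM with vehicle (median 3.58), 3.14 to 4.22 with angiotensin II (3.71), 3.06 to 3.89 with vehicle + AECs (3.71) and 3.26 to 4.18 with angiotensin II + AECs (3.58), and the 4 groups covered almost the same range. Its log2 fold change with angiotensin II was 0.03 (SE 0.0941), a sign that turned when any of 3 single mice was left out. Pecam1 had 3.41 to 4.28 FPKM with vehicle (median 3.67), 3.44 to 4.74 with angiotensin II (4.06), 3.07 to 4.12 with vehicle + AECs (3.64) and 3.83 to 4.41 with angiotensin II + AECs (4.09). Both groups infused with angiotensin II had the higher medians, with overlap of all 4 groups. Angiotensin II alone differed from vehicle by 0.08 (SE 0.0795).

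The nutrient carriers varied by 10.2% (Mfsd2a) and 10.1% (Slc2a1) between the 24 mice, as a coefficient of variation, against 29.1% for Cldn5. Mfsd2a had 9.69 to 11.9 FPKM with vehicle (median 11.7), 9.35 to 11.6 with angiotensin II (11.2), 9.52 to 13.8 with vehicle + AECs (10.6) and 8.75 to 12.4 with angiotensin II + AECs (11.6). Slc2a1 had 29.1 to 33.9 FPKM with vehicle (median 30.7), 28.3 to 37.2 with angiotensin II (32.6), 27.0 to 39.3 with vehicle + AECs (30.8) and 28.5 to 33.8 with angiotensin II + AECs (30.8). For both genes the widest spread was among vehicle + AEC mice, of which replicate 1 was the highest for each. The log2 fold changes with angiotensin II were -0.06 (SE 0.0903) for Mfsd2a and 0.04 (SE 0.0862) for Slc2a1, and the library set as a term left them at -0.05 and 0.07.

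Of the efflux and anion transporters, Abcb1a had 3.26 to 5.34 FPKM with vehicle (median 4.78), 3.92 to 5.52 with angiotensin II (4.98), 2.79 to 5.83 with vehicle + AECs (4.84) and 3.08 to 5.33 with angiotensin II + AECs (4.80). Slco1a4 had 4.74 to 7.30 FPKM with vehicle (median 6.81), 6.22 to 7.86 with angiotensin II (6.72), 5.08 to 7.78 with vehicle + AECs (6.82) and 4.56 to 8.04 with angiotensin II + AECs (7.20). In both genes the 6 libraries held the lowest value of every group. Their log2 fold changes with angiotensin II were 0.13 (SE 0.160) and 0.13 (SE 0.134), and they shrank to 0.04 (SE 0.0780) and 0.06 (SE 0.0658) with the library set as a term. Abcg2, the pump of lowest expression, had 1.55 to 2.13 FPKM with vehicle (median 1.87), 1.95 to 2.24 with angiotensin II (2.04), 1.32 to 2.40 with vehicle + AECs (2.09) and 1.34 to 2.22 with angiotensin II + AECs (1.84). All 6 mice infused with angiotensin II alone lay above the vehicle mean, and 2 vehicle mice lay among them. The log2 fold change was 0.13 (SE 0.123), or 0.08 (SE 0.0880) with the library set as a term. An exact permutation test of 6 against 6 mice gave a two-sided p = 0.0671 for Abcg2, the lowest of the 10 genes, and 0 of 10 were under 0.05.

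The size of a change that these mice leave room for depends on the gene. Over all 24 mice, the 95% intervals of angiotensin II against vehicle reached from a fall of 33.8% (Cldn5) to a rise of 53.3% (Tjp1). With the library set as a term, the intervals of all 10 genes lay within -15.0% (Mfsd2a) and 20.1% (Abcg2). In that fit the log2 fold changes ran from -0.05 for Mfsd2a to 0.08 for Abcg2. Restricted to the 18 libraries (4 with vehicle, 5 with angiotensin II), they ran from -0.04 for Mfsd2a to 0.08 for Slc2a1. A p-value above the threshold does not show that the groups are equal.

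**Figure D2:**
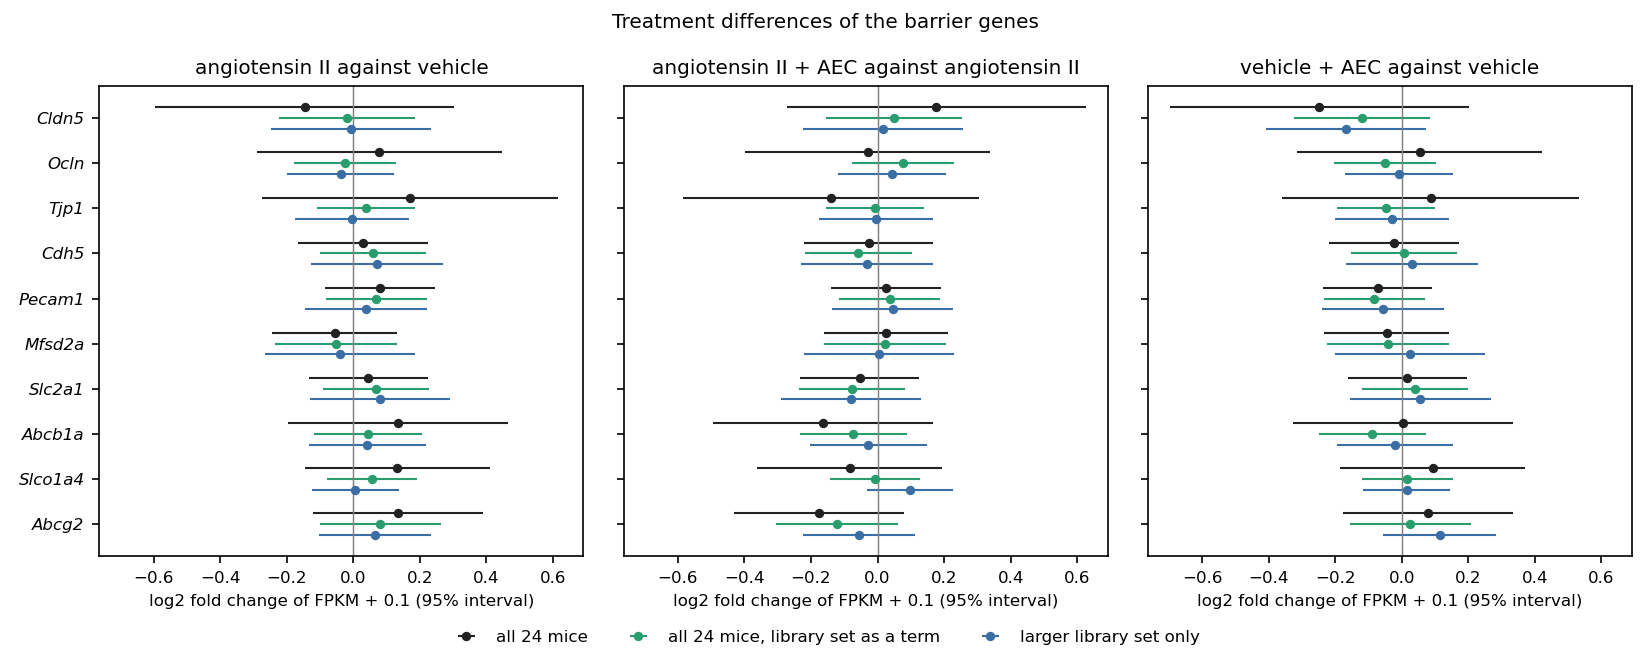
Log2 fold changes of FPKM + 0.1 with 95% intervals (horizontal axes) for the 10 barrier genes (vertical axis) in 3 comparisons of 6 against 6 mice, fitted over all 24 mice (black), with the library set as a term (green) and within the 18 libraries of the larger set (blue). Every interval includes 0, and for Cldn5, Ocln, Tjp1 and Abcb1a the green intervals are much narrower than the black ones.

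AECs were compared with no cells in mice infused with angiotensin II to ask whether the cells altered the barrier transcripts under treatment. Here 3 barrier genes were higher and 7 lower with AECs, from -0.17 for Abcg2 to 0.18 for Cldn5, with a median log2 fold change of -0.04. By limma, 0 of the 10 reached an adjusted p of 0.05, against 0% of all genes, and 0 were under 0.05 before adjustment, against 2.54%. The lowest exact permutation p of the 10 was 0.119. With the library set as a term, the log2 fold changes ran from -0.12 for Abcg2 to 0.08 for Ocln, and the 95% intervals lay within -19.0% and 19.2%. Within the 18 libraries they ran from -0.08 for Slc2a1 to 0.10 for Slco1a4. This comparison shares the mice infused with angiotensin II alone with the one above, so opposite signs in the pair of comparisons are not independent.

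In vehicle mice, AECs went with log2 fold changes of -0.25 (Cldn5) to 0.09 (Slco1a4), 6 higher and 4 lower. In limma, 0 of the 10 genes and 0% of all genes reached an adjusted p of 0.05, and before adjustment 0 of the 10 and 2.41% of all genes were under 0.05. The lowest exact permutation p was 0.318. With the library set as a term, the range was -0.12 (Cldn5) to 0.04 (Slc2a1), with 95% intervals within -20.1% and 15.5%, and within the 18 libraries it was -0.17 (Cldn5) to 0.11 (Abcg2). The vehicle mice serve here as controls too.

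The interaction, which asks whether AECs acted differently in mice infused with angiotensin II than in vehicle mice, ran from -0.25 (Abcg2) to 0.42 (Cldn5). The adjusted threshold was reached in limma by 0 of the 10 genes (0% of all genes) and the unadjusted one by 0 of the 10 (2.54%). With the library set as a term, the range narrowed to -0.15 to 0.17, and within the 18 libraries it was -0.17 (Abcg2) to 0.18 (Cldn5). Leaving out vehicle + AEC replicate 6, one of the 6 libraries, brought Abcg2 (-0.36, unadjusted p = 0.0209) and Cldn5 (0.58, unadjusted p = 0.0486) past the unadjusted threshold, with an adjusted p = 0.620 for each in limma.

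Averaged over mice with and without AECs, 12 mice infused with angiotensin II were set against 12 infused with vehicle. Pecam1 was the only barrier gene with an unadjusted p-value under 0.05 in this comparison, where 2.39% of all genes tested had one and 0% passed the adjusted threshold. Its log2 fold change was 0.13 (SE 0.0562, unadjusted p = 0.0307, adjusted p = 0.9999 in limma), from means of 3.80 ± 0.348 FPKM with vehicle and 3.61 ± 0.349 with vehicle + AECs to 4.03 ± 0.453 with angiotensin II and 4.09 ± 0.201 with angiotensin II + AECs (SD, n = 6 each). With the library set as a term, the log2 fold change of Pecam1 was 0.13 (SE 0.0513, unadjusted p = 0.0193, adjusted p = 0.9998 in limma). Within the 18 libraries it was 0.09 (unadjusted p = 0.168 in limma). The unadjusted threshold was also missed when vehicle replicate 4, angiotensin II replicate 6, vehicle + AEC replicate 6 or angiotensin II + AEC replicate 2 was left out (log2 fold changes of 0.11 to 0.12, unadjusted p = 0.0533 to 0.0645 in limma). The other 9 genes ran down to -0.02 (Mfsd2a). The average effect of AECs was -0.08 (Abcb1a) to 0.01 (Ocln), with 2 genes higher and 8 lower. The adjusted threshold in limma was reached by 0 of the 10 (0% of all genes) and the unadjusted one by 0 of the 10 (2.44% of all genes). With the library set as a term, the 95% intervals of this effect lay within -12.6% and 8.62%. Within the 18 libraries the effect was -0.08 (Cldn5) to 0.06 (Slco1a4), with 4 genes higher and 6 lower.

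The sets of libraries separated the barrier genes in both directions. In a limma fit with the treatment group and the library set, 2 of the 10 genes were higher in the 6 libraries at an adjusted p under 0.05, 5 were lower and 3 were neither. Of all genes tested, 53.3% passed this threshold, 22.3% higher and 31.0% lower in the 6 libraries, and among genes with a mean of at least 1 FPKM the share was 81.2%. For 5 barrier genes the sets did not overlap, as for 27.5% of all genes tested and 51.0% of the 13649 genes with a mean of at least 1 FPKM, so the barrier genes did not stand apart in this respect. The sets were drawn from the libraries' own total FPKM and are described here, since they are no treatment.

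Cldn5 and Tjp1, whose proteins meet in the same junction, differed most and in opposite directions. Cldn5 was at 60.9 to 77.4 FPKM in the 6 libraries and 31.1 to 47.6 in the 18 (69.7 ± 7.04 against 40.6 ± 4.98, SD), a log2 difference of 0.76 (SE 0.0810). Tjp1 was at 4.95 to 6.42 FPKM in the 6 and 8.57 to 11.9 in the 18 (5.78 ± 0.553 against 10.1 ± 0.829), a log2 difference of -0.80 (SE 0.0583). The ratio of Cldn5 to Tjp1 within a mouse was therefore 2.63 to 5.15 in the 18 libraries and 9.82 to 14.6 in the 6. Ocln shared the direction of Tjp1, with 1.58 ± 0.191 FPKM in the 6 and 2.46 ± 0.168 in the 18 (log2 difference -0.63, SE 0.0609). The transporters Abcb1a and Slco1a4 were lower by like amounts, Abcb1a with 3.41 ± 0.449 FPKM in the 6 and 4.99 ± 0.413 in the 18 (-0.54, SE 0.0643) and Slco1a4 with 5.17 ± 0.582 and 7.11 ± 0.474 (-0.45, SE 0.0542). The ratio of Abcb1a to Slco1a4 stayed at 0.604 to 0.817 in the 18 libraries and 0.550 to 0.730 in the 6. Abcg2 was lower in the 6 libraries (1.62 ± 0.271 against 2.06 ± 0.156 FPKM, -0.32, SE 0.0725), and Cdh5 was higher (3.99 ± 0.300 against 3.52 ± 0.341, 0.19, SE 0.0637), both with overlap. Pecam1 (-0.06), Mfsd2a (0.03) and Slc2a1 (0.13) did not pass the threshold. Slc2a1 passed it after median-ratio scaling (0.20, adjusted p = 0.0099 in limma) and with voom (0.20, adjusted p = 0.0021), and Pecam1 passed it after each mouse was centred on the endothelial identity genes (-0.24, adjusted p = 0.0027 in limma).

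The direction of the difference ran with the composition of the transcripts shown above. Across the 10 genes, the log2 difference between the sets had a Spearman correlation of 0.721 with the G and C content of the longest transcript and of -0.697 with gene length. The points share the same 24 libraries, and the correlations are a description. The gene richest in G and C and shortest, Cldn5 at 60.5% and 1416 bases, had the highest difference, and the 5 genes under 47% G and C (Abcg2, Slco1a4, Ocln, Abcb1a and Tjp1), of 4222 to 8153 bases, were those lower in the 6 libraries. The 13633 genes with a mean of at least 1 FPKM and a known composition were divided into 5 bins of like size. In order of rising G and C content, the median log2 difference of the bins was -0.33, -0.34, -0.12, 0.16 and 0.37. In order of rising length it was 0.45, 0.24, -0.03, -0.23 and -0.48. Total FPKM, by which the sets were drawn, itself depends on how the reads are shared between short and long genes, so the relation with length is partly built in. Lengths here are the gene lengths used for FPKM. The G and C content is that of the longest transcript, which has 3441 bases for Pecam1 and 3823 for Slco1a4. At like gene length, Cdh5 (4203 bases, 52.2% G and C) and Ocln (4222 bases, 42.0%) had log2 differences of 0.19 and -0.63. Pecam1 (6228 bases, 50.2%) and Slco1a4 (6414 bases, 40.3%) had -0.06 and -0.45. Among the genes lowest in G and C, however, Abcg2 (8153 bases, 39.2%) had -0.32, Slco1a4 -0.45 and Ocln -0.63. Their differences thus fell as G and C content rose. These genes were picked after their values were seen, and the parts of composition and length were not tested.

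**Figure D3:**
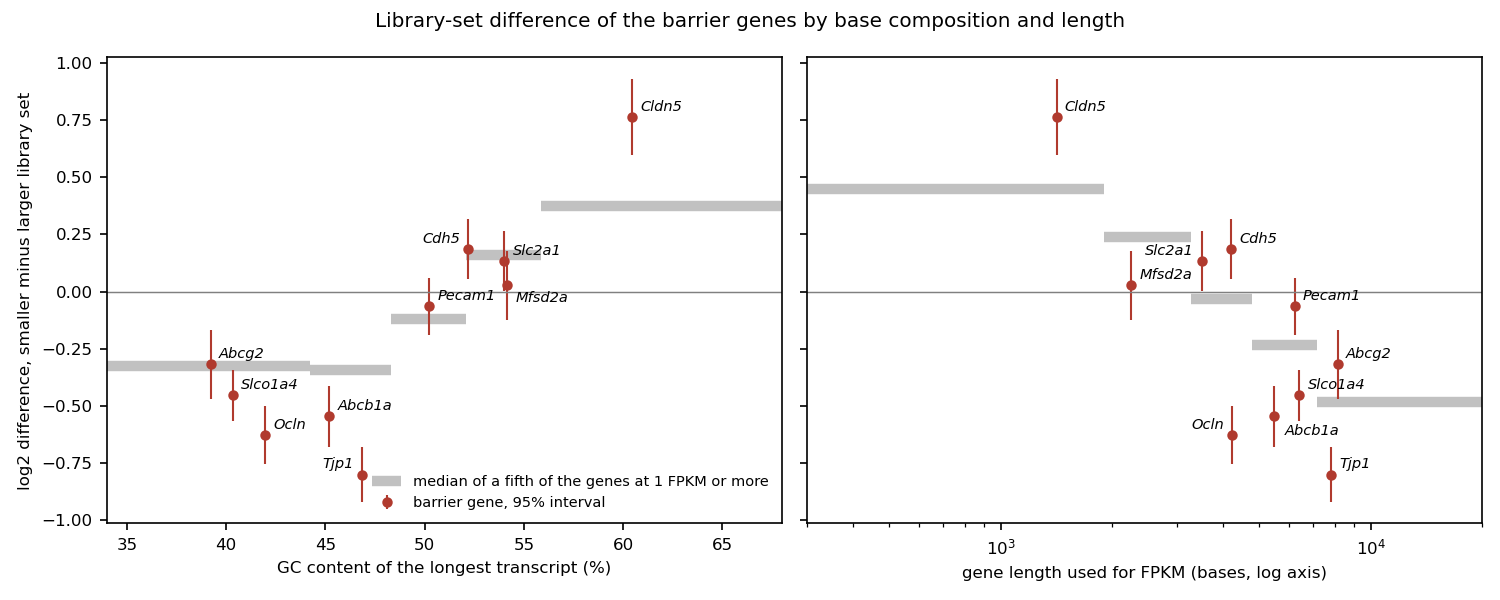
Log2 difference between the 6 libraries and the 18 (smaller minus larger set, vertical axis, 95% intervals) for the 10 barrier genes against G and C content (left) and gene length on a log axis (right); grey bars are the medians of 5 bins of all genes with a mean of at least 1 FPKM. Going from Abcg2, at 39.2% G and C, to Cldn5, at 60.5%, the genes pass from negative to positive, as do the grey bars, which run from -0.33 to 0.37.

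Markers of other cells also differed between the sets. Of 60 markers in 9 lists of other cell types, 34 were higher and 17 lower in the 6 libraries at an adjusted p-value under 0.05 in limma. These 51 are 85.0% of the markers, against 81.2% of all genes with a mean of at least 1 FPKM. Summed FPKM of 5 smooth muscle genes was 18.2 to 27.1 in the 18 libraries and 54.8 to 67.7 in the 6, and that of 9 pericyte genes was 71.6 to 84.9 and 105.9 to 117.8. For 21 endothelial identity genes it was 121.8 to 151.7 and 170.0 to 187.6, and for 6 genes of vesicle transport and fenestration 33.84 to 42.6 and 46.45 to 53.79. The sums of 7 meningeal fibroblast genes (15.8 to 19.6 and 23.0 to 28.4), 5 oligodendrocyte genes (893.6 to 1076 and 1093 to 1333) and 9 genes of the choroid plexus epithelium (362.2 to 784.0 and 847.6 to 1136) were also higher in the 6 without overlap, so the lists with higher sums were not those of vessels alone. The sum of 8 genes of astrocyte endfeet was lower without overlap, at 324.4 to 372.9 in the 18 and 282.5 to 322.6 in the 6, as was that of the 14 other junction genes, at 122.1 to 139.1 and 97.3 to 105.0. Such sums are carried by their most abundant genes, such as Ttr (mean 664.1 FPKM) in the choroid plexus list. At the adjusted threshold in limma, 4 choroid plexus genes were higher and 3 lower, and 9 endothelial identity genes were higher and 4 lower. The same counts were 4 and 0 for smooth muscle, 5 and 1 for pericytes and 5 and 0 for meningeal fibroblasts. They were 4 and 0 for oligodendrocytes, 2 and 6 for astrocyte endfeet and 5 and 6 for the other junction genes. The sums overlapped for 6 neuronal, 6 microglial and 5 erythroid genes (32.9 to 189.5 and 122.9 to 204.2 for the last), and no gene of any list was at 0 in all mice. Their part in the differences of the barrier genes was not tested. When each mouse was centred on the endothelial identity genes, 1 barrier gene, Cldn5, was still higher in the 6 libraries and 6 were lower, while Cdh5 was at 0.0042 and Mfsd2a and Slc2a1 turned to -0.15 and -0.05.

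Within the 18 libraries, pairs of barrier genes were about as often negatively as positively correlated. Over the 45 pairs of genes, Pearson's r of log2(FPKM + 0.1) across the 18 mice had a median of 0.0051 and was positive in 23 pairs. The highest was that of Abcb1a and Slco1a4, a pump and a carrier of drug-like molecules (r = 0.546, permutation p = 0.0179, adjusted over 45 pairs 0.370; Spearman's rho 0.519, permutation p = 0.0290, adjusted 0.231), and it fell to 0.297 without the 2 mice farthest from the median of Abcb1a. The lowest was that of Tjp1 and Slc2a1 (r = -0.516, permutation p = 0.0296, adjusted 0.370; Spearman's rho -0.558, permutation p = 0.0182, adjusted 0.231), which was -0.709 without the 2 mice farthest from the median of Tjp1. No pair of the 45 had an adjusted permutation p-value under 0.05 by r, nor by rho. Among the junction genes, Tjp1 and Cdh5 had the highest rho of all pairs (r = 0.467, permutation p = 0.0497, adjusted 0.370; Spearman's rho 0.589, permutation p = 0.0116, adjusted 0.231), with r = 0.444 without the 2 mice farthest from the median of Tjp1. Cldn5 and Tjp1 had r = -0.354, and Ocln and Tjp1 had r = 0.146. In the 6 libraries alone the median r was 0.464, over a range of -0.810 to 0.873.

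**Figure D4:**
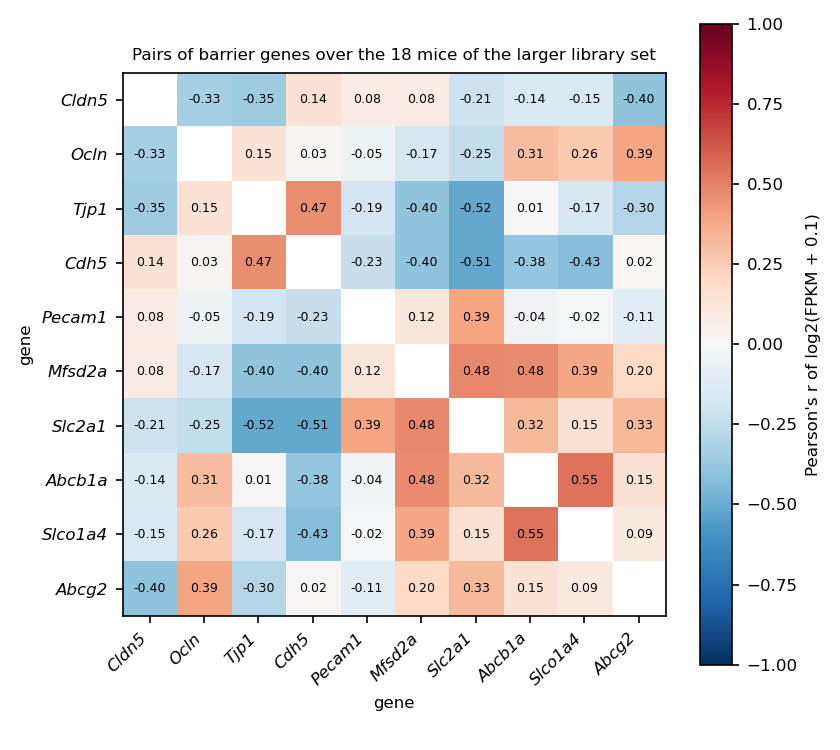
Pearson's r of log2(FPKM + 0.1) for each pair of the 10 barrier genes (both axes) over the 18 mice of the larger library set, with red for positive and blue for negative values. Pairs of either sign are about equally common (23 of 45 positive), and the extremes are 0.55 for Abcb1a with Slco1a4 and -0.52 for Tjp1 with Slc2a1.

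The genes most like the mean z-score of the 10 barrier genes over the 18 mice, among 13639 other genes with a mean of at least 1 FPKM, were Usp54 (r = 0.872), Phka1 (0.824), Plat, the tissue plasminogen activator (0.799), Kmt2b (0.771) and Gm47982 (0.758). They are named as the top of a ranking and carry no test. The 20 endothelial identity genes at this level had a median r of -0.139 with the same score, and all genes compared had one of -0.006.

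Other genes of the barrier were taken from lists. Of 73 genes in 5 lists (other junction genes, other barrier transporters and receptors, endothelial identity, Wnt and Norrin signalling, and vesicle transport and fenestration), 0 reached an adjusted p of 0.05 in limma in any treatment comparison, whether over all 24 mice, with the library set as a term or within the 18 libraries. The counts before adjustment moved with the library set, as did those of all genes. For angiotensin II against vehicle, 0 of 73 were under 0.05 before adjustment over all mice (2.21% of all genes), 3 with the library set as a term (3.46%) and 0 within the 18 libraries (3.86%). For AECs in mice infused with angiotensin II the counts were 0 (2.54%), 2 (3.90%) and 3 (4.61%) in the same order, and for the interaction 0 (2.54%), 3 (3.41%) and 3 (4.20%). For AECs in vehicle mice they were 1 (2.41%), 5 (3.54%) and 6 (4.18%). The 1 gene was Mmrn2, an endothelial matrix glycoprotein, at 1.57 ± 0.270 FPKM with vehicle and 1.19 ± 0.171 with vehicle + AECs (SD, n = 6 each; log2 fold change -0.37, unadjusted p = 0.0213 and adjusted p = 0.995 in limma), with -0.29 within the 18 libraries.

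In the averaged comparison of angiotensin II, 2 of 73 were under the unadjusted threshold (2.39% of all genes), 7 with the library set as a term, of which 6 were higher (4.43%), and 3 within the 18 libraries (3.88%). The 2 were Podxl, a sialomucin of the endothelial surface (log2 fold change 0.22, SE 0.0596), and Cd34, another sialomucin (0.10, SE 0.0452), both at adjusted p = 0.9999 in limma. Within the 18 libraries they were at 0.16 (unadjusted p = 0.0092 in limma) and 0.08 (unadjusted p = 0.0440), both still under the unadjusted threshold. Podxl averaged 8.05 ± 1.05 FPKM with vehicle and 9.02 ± 0.747 with angiotensin II, and 7.12 ± 0.361 and 8.63 ± 1.08 with AECs (SD, n = 6 each).

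In the averaged comparison of AECs, 3 of 73 were under it (2.44% of all genes). The count was 8 with the library set as a term (4.11%) and 6 within the 18 libraries (4.35%), and in each case all of them were lower. For both averaged comparisons, the split of all genes by direction is not given here, so these directions have no background beside them. The 3 were Jam3, a junctional adhesion molecule (-0.13, SE 0.0575), Slc38a5, an amino acid transporter (-0.21, SE 0.0867), and Cav1, the coat protein of caveolae (-0.17, SE 0.0675), each at adjusted p = 1 in limma. Within the 18 libraries Jam3 was at -0.08 (unadjusted p = 0.15 in limma) and Slc38a5 at -0.19 (unadjusted p = 0.0675), both past the threshold no longer, and Cav1 was at -0.15 (unadjusted p = 0.0337).

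Of the 73 genes, 26 were higher and 27 lower in the 6 libraries at an adjusted p-value under 0.05, against 22.3% and 31.0% of all genes. Most of the 73 had a mean of at least 1 FPKM, and 81.2% of all genes at that level passed in either direction. The lists did not stand above that share. The 26 and 27 were 5 higher and 6 lower of 14 junction genes, 3 and 11 of 17 transporters and receptors, 9 and 4 of 21 endothelial identity genes, 6 and 5 of 15 Wnt and Norrin genes, and 3 and 1 of 6 genes of vesicle transport and fenestration. Among the 60 markers of other cell types, those with an unadjusted p-value under 0.05 in a treatment comparison over all 24 mice were Notch3 (-0.13) and Lum (-0.34) for AECs in vehicle mice, Lum (-0.22) for the average effect of AECs and Col1a1 (0.78) for the interaction. Without the 6 libraries these were -0.16, -0.31, -0.27 and 0.37, and that of Col1a1 was 0.48 with the library set as a term. Over the 6 comparisons, 0 to 2 of the 60 were under the unadjusted threshold over all mice, 1 to 5 with the library set as a term and 1 to 6 within the 18 libraries, and 0 passed the adjusted threshold in limma in any of these fits.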

How the data were processed

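The authors deposited 1 table of FPKM values, the fragments of each gene divided by gene length and library size, for brain hemispheres of 24 mice, with the gene lengths and coordinates they used. According to the study's methods, poly-A mRNA was sequenced and mapped to the Ensembl mouse genome. The submitters' processing notes name GRCm38 (mm10) and DESeq 1.10.1. The aligner, counter, annotation release and use of strand are not given in the sources used here.

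Groups came from the sample labels. As FPKM is no count, genes above 0 in at least 6 of 24 mice (27286) were tested with limma 3.58.1 in R 4.3.3 on log2(FPKM + 0.1), with all 4 groups in 1 fit, a mean-variance trend and Benjamini-Hochberg adjustment over all genes at a threshold of 0.05. Single genes were also compared by two-sided exact permutation over 924 splits of 6 against 6 mice, whose smallest p is 0.00216. The sets of 18 and 6 libraries were split at the largest gap in total FPKM. Gene pairs were correlated with 100000 permutations. Python 3.11.15 with numpy 2.4.6, pandas 2.3.3, scipy 1.17.1 and matplotlib 3.10.9 was used for tables and plots.

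Alternatives were other pseudocounts, filters, scalings and weights, voom on recovered fragments, the library set as a term or the larger set alone, a replicate block and leaving out each mouse. FPKM multiplied by gene length gave whole multiples of 1 step in 100% of values (tolerance 0.1), which returned the fragments used for depth and for voom. Limits from depth cover counting error only. Within groups, no library was a copy of another (chi-square of 3.19 to 96.1 per gene over 60 pairs). Pairs of libraries from different groups were not checked in this way. Of 54532 gene identifiers, 54409 are in GENCODE M21, and 53499 have the same coordinates there, all 10 barrier genes included. Promoters and proteins were not used here.

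All 10 genes were named with their angiotensin II fold change, and elsewhere by name where the unadjusted p was under 0.05. Genes of the 5 other barrier lists were named by that threshold, at most 3 per list and comparison, and so were the 5 genes of highest r. The extremes of ranges, the named pairs and the cell-type markers were picked after their values were seen. The members and lists were chosen with earlier results of these data known. On simulated fragments for angiotensin II against vehicle (28504 genes), the fit called 18 of 50 genes changed 1.25-fold, 45 of 50 changed 1.5-fold, 50 of 50 changed 2-fold and 50 of 50 changed 4-fold, with 16 false calls. The simulation gave all genes the same fixed spread between mice, changed only genes with many fragments and held no difference between library sets. Its counts are therefore no guide to genes such as Cldn5 and Tjp1, which varied by 29.1% and 22.8% between the 24 mice.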

Additional observations from a re-analysis of the deposited data

Results flagged for a closer look

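Each barrier gene was looked at in each group of 6 mice for a mouse that stands apart by Dixon's gap test, 40 groups in all, of which 3 had one. Chance gives about 1 in 20. Cldn5 stood high in vehicle + AEC replicate 6 at 72.14 FPKM, against 31.10 to 44.13 FPKM in the other 5 mice, and Abcg2 stood low in the same mouse at 1.323 FPKM, against 2.054 to 2.398 FPKM. That mouse is the one of its group among the 6 libraries of high total FPKM. Mfsd2a stood low in vehicle replicate 4 at 9.691 FPKM, against 11.09 to 11.87 FPKM, and that mouse is among the 18 libraries.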

How the results depend on the processing

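The values were recomputed with pseudocounts of 1 and 0.01, without the filter, with only genes of at least 1 FPKM, with only the compared groups, after median-ratio scaling, after centring on the endothelial identity genes, with voom on recovered reads, with array weights, with the library set as a term, within the 18 libraries, with a replicate block and without each mouse in turn. Voom with the library set as a term was chosen after seeing the data. In each of these, 0 of the 10 barrier genes reached an adjusted p of 0.05 in limma in any treatment comparison. The fit of only the compared groups was made for the 3 comparisons of a pair of groups, and the correlations do not depend on the filter.

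The sign of Ocln for angiotensin II against vehicle turned to -0.02568 with the library set as a term, -0.01305 with array weights, -0.03813 within the 18 libraries and -0.03445 with voom and the library set, and that of Tjp1 turned to -0.002549 within the 18 libraries. Without single mice, Ocln ran from -0.03154 (without vehicle replicate 6) to 0.1724, and Cdh5 from -0.009825 to 0.08819, negative without vehicle replicate 3 or angiotensin II replicate 1 or 5. In the average effect of angiotensin II, the number of genes under the unadjusted threshold went from 1, Pecam1, to 0 after centring, with array weights and within the 18 libraries, and was 0 to 1 without single mice. For the interaction it was 0 to 2 without single mice, with 2 without vehicle + AEC replicate 6.

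For the library sets, Slc2a1 passed the adjusted threshold after median-ratio scaling (0.2009) and with voom (0.2039), Pecam1 turned to 0.0009652 and 0.003076 in the same fits and passed the threshold after centring (-0.245), and Mfsd2a and Slc2a1 to -0.1533 and -0.04653 after centring, which left 1 gene higher in the 6 libraries. Without single mice, the genes higher there numbered 1 to 3, with 1 when vehicle replicate 5 and 3 when angiotensin II replicate 6 or vehicle + AEC replicate 1 was left out, and Mfsd2a ran from -0.002818 (without angiotensin II + AEC replicate 4) to 0.09142. After centring, 3 pairs of genes had an adjusted permutation p-value under 0.05. They were Abcb1a with Slco1a4 (r = 0.709), Cldn5 with Abcg2 (r = -0.658) and Ocln with Abcg2 (r = 0.661), so 1 of the 3 was negative. Centring subtracts the same value from all 10 genes of a mouse, which by itself adds a shared term. The part of this term in the 3 pairs was not tested. The cause of the other changes was not tested either.

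Replicate numbers are shared between groups in the labels. Same-numbered mice deviated together in all 6 pairs only between the vehicle and angiotensin II + AEC groups (r = 0.445 to 0.789). Only these groups had the same replicate numbers among the 6 libraries of high total FPKM. The library set was not removed beforehand, so this check cannot tell pairing from library set. At best 3 of 6 mice correlated most with their own number, and the numbers were not taken as pairs. With the replicate block, 0 barrier genes had an adjusted p-value under 0.05 in any treatment comparison, and Pecam1 kept an unadjusted p = 0.0384 in limma for the average effect of angiotensin II.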
